A study of Homo sapiens with 6 samples.

Results

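The human genome holds a cluster of SCAN zinc finger genes at 6p22, and 10 of them were followed here in RNA-seq of DNMT3B KO and HCT116 cells: ZNF165, ZSCAN16, ZKSCAN8, ZSCAN9, ZKSCAN4, ZSCAN26, ZKSCAN3, ZSCAN31, ZSCAN12 and ZSCAN23. They were chosen by symbol, with earlier results of these data known, and all 10 were found among the 60666 genes listed for each library. The DNMT3B KO libraries (n = 3) come from a derivative of HCT116 in which DNMT3B, a de novo DNA methyltransferase, was knocked out. The HCT116 libraries (n = 3) come from the parental line, a colorectal carcinoma line wild type for DNMT3B, and neither line received a treatment. The knockout is 1 derived line, and no label states that the libraries were grown as separate cultures. The p-values therefore reflect nothing beyond the spread between these libraries, which may be technical.

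The SCAN domain is a short protein interaction module found in vertebrates, through which these proteins pair with themselves and with each other. It sits near the N-terminus, and an array of C2H2 zinc fingers that bind DNA follows it. ZKSCAN3, ZKSCAN4 and ZKSCAN8 also carry a KRAB domain, the module through which many zinc finger proteins bring the corepressor TRIM28 and histone methyltransferases to chromatin. Zinc finger clusters are themselves known to carry H3K9me3 in human cells, and whether the 6p22 cluster carries it in these lines was not analysed here.

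The members lie within 362935 bases of chromosome 6, at chr6:28080568-28443502 (hg38), with 6 on the plus strand and 4 on the minus strand. The list above follows the order of their start sites. ZKSCAN3 and ZSCAN31 overlap at their 5′ ends on opposite strands. The start of ZSCAN31 lies 6324 bases inside ZKSCAN3, the genes share 6325 bases, and none of the shared bases is exonic in both. RefSeq promoter sequences (GRCh38.p14) were found for 7 of the members, in 14 windows of 250 bases before a start site, and ZNF165, ZSCAN16 and ZSCAN26 had no entry. Cytosines that are followed by guanine (CpG) are the sites that DNA methyltransferases modify, so CpG content was counted. The windows at the outer starts of the genes whose levels differed most between the lines, ZSCAN12 and ZSCAN31, are shown with an inner start of ZSCAN31 and with the start of ZKSCAN3, the gene that overlaps ZSCAN31. CpG sites are in capitals and each sequence reads 5′ to 3′ on the strand of its gene.
ZSCAN12, chr6:28399748-28399997, minus strand: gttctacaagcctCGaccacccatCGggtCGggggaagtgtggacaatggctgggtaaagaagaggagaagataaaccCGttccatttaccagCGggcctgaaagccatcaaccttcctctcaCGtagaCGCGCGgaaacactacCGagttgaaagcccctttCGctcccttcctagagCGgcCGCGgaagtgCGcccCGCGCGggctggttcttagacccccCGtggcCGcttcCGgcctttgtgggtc
ZSCAN31 outer start, chr6:28356272-28356521, minus strand: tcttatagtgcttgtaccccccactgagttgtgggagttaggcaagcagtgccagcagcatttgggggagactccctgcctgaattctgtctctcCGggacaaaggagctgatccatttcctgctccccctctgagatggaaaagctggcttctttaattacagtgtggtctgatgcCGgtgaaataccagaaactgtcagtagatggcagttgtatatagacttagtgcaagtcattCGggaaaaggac
ZSCAN31 inner start, chr6:28336135-28336384, minus strand: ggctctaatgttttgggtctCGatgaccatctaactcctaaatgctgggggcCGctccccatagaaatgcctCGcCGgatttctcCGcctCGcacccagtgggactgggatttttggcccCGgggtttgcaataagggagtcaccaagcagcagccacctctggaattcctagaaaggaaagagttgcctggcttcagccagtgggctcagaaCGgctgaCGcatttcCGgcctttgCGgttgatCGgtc
ZKSCAN3, chr6:28349697-28349946, plus strand: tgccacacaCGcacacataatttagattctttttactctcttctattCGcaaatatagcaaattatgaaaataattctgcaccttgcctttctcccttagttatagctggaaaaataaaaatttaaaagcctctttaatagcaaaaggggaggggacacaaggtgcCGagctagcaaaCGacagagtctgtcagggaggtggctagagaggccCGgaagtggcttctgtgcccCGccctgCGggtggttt

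These windows differ in CpG content. The ZSCAN12 window holds 21 CpG sites, the outer ZSCAN31 window 3, the inner ZSCAN31 window 12 and the ZKSCAN3 window 7. Of windows not printed, the inner ones of ZSCAN12 hold 17 and 15, and the other inner one of ZSCAN31 holds 11. Over all 35116 promoter windows of the table the median is 11, with quartiles of 3 and 23. Over the 14 windows of the members the count ran up to 26, in a window of ZKSCAN4. The sequence CCGGAAG, a core site of ETS factors searched on both strands, occurs in the windows of ZSCAN12 and ZKSCAN3 printed above and in 8.52% of all windows. It also occurs at starts of ZKSCAN8 and ZSCAN9 and in an overlapping inner window of ZSCAN31. The GC box GGGCGG, present in 42.64% of all windows, occurs in the ZKSCAN3 window but in neither ZSCAN31 window nor the ZSCAN12 window shown. It occurs in the 2 inner windows of ZSCAN12, which overlap each other, and in 1 window of ZKSCAN4. CCAAT (32.01% of all windows) occurs at the starts of ZSCAN9 alone, CACGTG (6.34%) in 1 inner window of ZSCAN12 and TGACGTCA (1.65%) in none of the 14. A match describes these letters only, and which start sites were in use was not measured.

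The summed estimated counts were 56277217 to 67624429 per DNMT3B KO library and 55436267 to 68274783 per HCT116 library. DNMT3B was counted at 2.54, 2.87 and 2.83 CPM (library-size normalised counts) in DNMT3B KO replicates 1, 2 and 3, against 38.5, 30.1 and 39.5 CPM in HCT116 replicates 1, 2 and 3, so the target gene was lower in each knockout library. Of 8 markers of colorectal epithelium, 7 in DNMT3B KO and 6 in HCT116 cells averaged at least 1 CPM, and LGALS4 stayed under it in both lines. The summed level of these markers was 2123 to 2310 CPM in DNMT3B KO and 4388 to 5257 CPM in HCT116 libraries. KRT8, KRT18, KRT19 and CDH1 were lower in every DNMT3B KO library than in any HCT116 library. VIL1 was higher in DNMT3B KO (means of 1.05 and 0.0841 CPM), and the libraries of the lines overlapped for EPCAM, CDX2 and LGALS4. The 4 immune markers summed to 1.26 to 1.39 CPM in DNMT3B KO and 0.0452 to 0.236 CPM in HCT116 libraries, 3 endothelial markers to at most 1.59 and 1.26 CPM, and 4 fibroblast markers to 15.2 to 17.8 and 9.94 to 19.8 CPM, mainly COL1A1. The 2 haemoglobin genes summed to 1.17 to 1.90 and 0.377 to 1.54 CPM. HCT116 replicates 2 and 3 stood farthest apart on the second principal component (50.4 and -54.4, against 3.67 for HCT116 replicate 1 and -5.79 to 5.80 for DNMT3B KO libraries). The part of these differences in the results below was not tested.

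Between DNMT3B KO and HCT116 cells, 2 of the 10 members rose (ZSCAN12 and ZNF165), 1 fell (ZSCAN31), 6 did not pass the test and ZSCAN23 had too few counts to be tested. Calls required an adjusted p under 0.05 in edgeR's quasi-likelihood test over all 16959 tested genes, of which 28.1% were called, 12.9% as higher and 15.1% as lower. The members' share, 33.3% of the 9 tested, lies near that of all genes. Their median log2 fold change of DNMT3B KO over HCT116 was 0.21, against -0.00063 over all tested genes, and 6 of the 9 were above 0.

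ZSCAN12, a member with a SCAN domain and no KRAB domain, showed the largest increase of the 9. It was counted at 3.98, 5.55 and 3.98 CPM in DNMT3B KO replicates 1, 2 and 3, against 1.81, 1.41 and 1.96 CPM in HCT116 replicates 1, 2 and 3. Every DNMT3B KO library lay above every HCT116 library. The means were 4.50 ± 0.909 and 1.73 ± 0.284 CPM (SD, n = 3 each), a ratio of 2.61. The log2 fold change was 1.38 (standard error 0.24, 95% interval 0.84 to 1.93, adjusted p = 0.0037 from edgeR). In bulk RNA, a change in the share of cells that express a gene and a change in RNA per cell cannot be told apart. The gene kept its call under all 11 alternative settings, which gave log2 fold changes of 1.20 to 1.48 and adjusted p-values of 5.1e-07 to 0.021. Of its 50-base stretches, 99.21% occur in no other annotated gene.

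ZSCAN31, another SCAN member without a KRAB domain, fell. Its levels were 2.75, 3.24 and 2.33 CPM in DNMT3B KO replicates 1, 2 and 3, against 6.31, 10.8 and 5.20 CPM in HCT116 replicates 1, 2 and 3. The groups did not overlap, and HCT116 replicate 2 stood above the other HCT116 libraries. The means were 2.77 ± 0.454 and 7.42 ± 2.94 CPM (SD, n = 3 each), so that HCT116 was 2.68 times as high. The log2 fold change was -1.42 (standard error 0.29, 95% interval -2.10 to -0.75, adjusted p = 0.0087 from edgeR). Without HCT116 replicate 2 it was -1.07 and still passed (adjusted p = 0.0044). All 11 alternatives kept the call, with log2 fold changes of -1.62 to -1.07 and adjusted p-values of 8.8e-06 to 0.043.

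ZNF165, a SCAN zinc finger gene known as a cancer-testis gene for its expression in testis and tumours, rose by a smaller amount. It was counted at 14.8, 14.3 and 16.5 CPM in DNMT3B KO replicates 1, 2 and 3, against 11.2, 11.3 and 11.1 CPM in HCT116 replicates 1, 2 and 3. The groups did not overlap, and the HCT116 libraries lay closer together than those of any other tested member (coefficient of variation 0.812%). The means were 15.2 ± 1.12 and 11.2 ± 0.0909 CPM (SD, n = 3 each). The log2 fold change was 0.44 (standard error 0.12, 95% interval 0.17 to 0.71, adjusted p = 0.025 from edgeR). The call was kept under 5 of 11 alternatives. Those that lost it included the fits without HCT116 replicate 1 (adjusted p = 0.093), without DNMT3B KO replicate 1 (0.074), 2 (0.058) or 3 (0.10), and with low counts unfiltered (adjusted p = 0.052). The lncRNA AL121944.1 overlaps 20.1% of its exon bases on the opposite strand and had 0.201 to 0.229 CPM in DNMT3B KO and 0.159 to 0.345 CPM in HCT116 libraries.

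**Figure D1:**
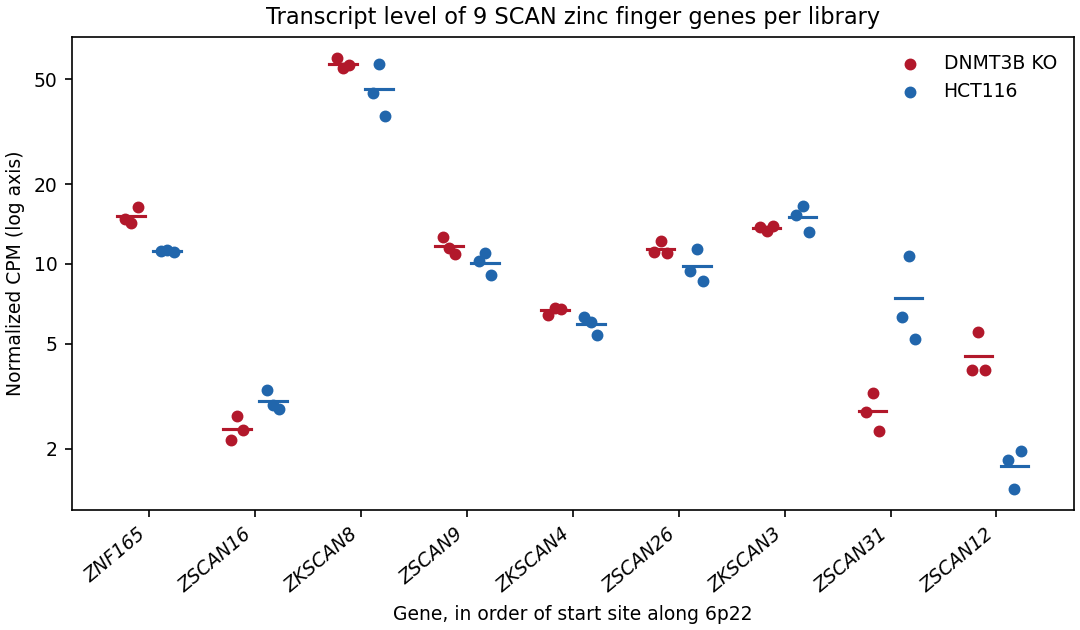
Normalized CPM on a log axis for the 9 tested members in the order of their start sites, with 1 point per library (3 DNMT3B KO in red, 3 HCT116 in blue) and a line at each mean. The points of ZSCAN12, at 4.50 and 1.73 CPM on average, and of ZSCAN31, at 2.77 and 7.42 CPM, are the farthest apart, in opposite directions.

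The KRAB-bearing members did not pass the test. ZKSCAN8 had the highest level of all members, with 60.0, 55.0 and 56.6 CPM in DNMT3B KO replicates 1, 2 and 3, against 44.3, 57.3 and 36.1 CPM in HCT116 replicates 1, 2 and 3. The groups overlapped through HCT116 replicate 2. Its log2 fold change was 0.32 (95% interval -0.05 to 0.68, adjusted p = 0.17). Without HCT116 replicate 2, ZKSCAN8 passed (log2 fold change 0.50, adjusted p = 0.0070), and it did not pass under the 10 other alternatives.

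ZKSCAN3, a transcription factor described as a repressor of autophagy genes and as a driver of growth in colorectal cancer cells, had 13.9, 13.3 and 13.9 CPM in DNMT3B KO replicates 1, 2 and 3. It had 15.3, 16.6 and 13.2 CPM in HCT116 replicates 1, 2 and 3, and the groups overlapped. The log2 fold change was -0.14 (95% interval -0.43 to 0.15, adjusted p = 0.46). ZKSCAN4, described as a repressor of p53 signalling, had 6.43, 6.83 and 6.76 CPM in DNMT3B KO replicates 1, 2 and 3, against 6.32, 6.05 and 5.38 CPM in HCT116 replicates 1, 2 and 3. These groups did not overlap, but the gap was narrow and the log2 fold change was 0.17 (95% interval -0.17 to 0.51, adjusted p = 0.42). ZKSCAN3 and ZKSCAN4 share 211 stretches of 50 bases, so reads from these stretches are uncertain. Of all their stretches, 92.41% in ZKSCAN3 and 96.02% in ZKSCAN4 occur in no other annotated gene.

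The remaining SCAN members without KRAB did not pass either. ZSCAN9 had 12.6, 11.5 and 10.9 CPM in DNMT3B KO replicates 1, 2 and 3, against 10.3, 10.97 and 9.05 CPM in HCT116 replicates 1, 2 and 3 (log2 fold change 0.21, 95% interval -0.10 to 0.52). ZSCAN26, once named for binding a serum response element, had 11.1, 12.2 and 11 CPM in DNMT3B KO, against 9.42, 11.4 and 8.65 CPM in HCT116 (log2 fold change 0.22, 95% interval -0.12 to 0.56). Both genes had overlapping groups. ZSCAN16 was the only other member whose groups did not overlap, with 2.15, 2.65 and 2.35 CPM in DNMT3B KO, against 3.33, 2.94 and 2.84 CPM in HCT116. Its log2 fold change was -0.35 (95% interval -0.81 to 0.11, adjusted p = 0.23). In all, the libraries of the lines did not overlap for 5 of the 9 tested members (3 higher, 2 lower), against 45.9% of all tested genes. The adjusted p-values of ZSCAN9 and ZSCAN26 were 0.29 and 0.31.

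ZSCAN23, at the end of the cluster, had no count in any HCT116 library and 1 count over the DNMT3B KO libraries, in replicate 3. Where a library has no count, as many as 3 could have been missed, or 0.0416 to 0.0503 CPM in DNMT3B KO and 0.0452 to 0.0595 CPM in HCT116 libraries, and this limit holds for counting error only. A difference in ZSCAN23 was therefore not detectable at this depth. Its single RefSeq window holds 17 CpG sites.

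**Figure D2:**
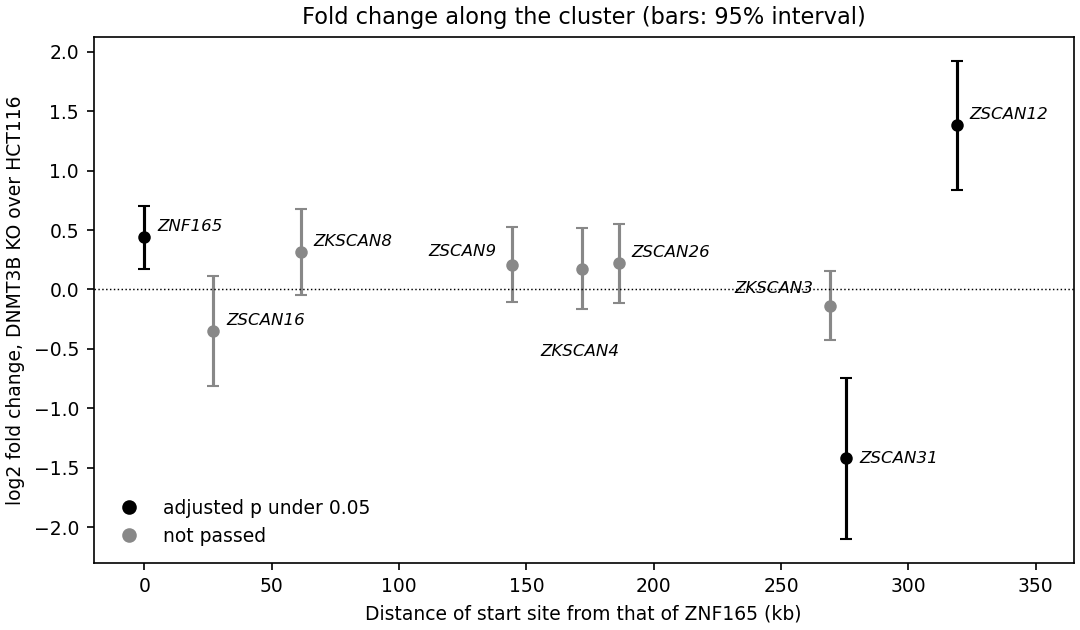
Log2 fold change of DNMT3B KO over HCT116 with its 95% interval for the 9 tested members against the distance in kb of each start site from that of ZNF165. The called genes (black) are ZNF165 at 0 kb, ZSCAN31 at 275.7 kb and ZSCAN12 at 319.2 kb, and the 6 others (grey) have intervals that span 0.

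ZSCAN31 and ZSCAN12, neighbours by start site, moved in opposite directions, and ZKSCAN3, which also neighbours ZSCAN31, did not pass. ZSCAN31 and ZKSCAN3 overlap, and the ratio of ZSCAN31 to ZKSCAN3 CPM was 0.198, 0.243 and 0.168 in DNMT3B KO replicates 1, 2 and 3, against 0.411, 0.647 and 0.395 in HCT116 replicates 1, 2 and 3. All 3 ratios were lower in DNMT3B KO cells, by 1.23 on the log2 scale. The libraries were made with a strand-marking kit, and how strand entered the counting is not given in the sources used here. The ratio is of CPM and not per length, and it is given as a description with no test.

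Per kb of annotated exon, the order of the members was led by ZKSCAN8 in both lines (7.54 ± 0.335 CPM per kb in DNMT3B KO and 6.05 ± 1.41 in HCT116, SD, n = 3). ZNF165 came next with 6.04 ± 0.444 and 4.46 ± 0.0362 CPM per kb. In DNMT3B KO cells, ZSCAN26, ZSCAN9, ZKSCAN3, ZSCAN16, ZKSCAN4, ZSCAN31, ZSCAN12 and ZSCAN23 followed, and of these neighbours only ZSCAN31 and ZSCAN12 overlapped in their libraries (0.559 ± 0.0915 and 0.396 ± 0.0799 CPM per kb). In HCT116 cells the order after ZNF165 was ZSCAN26, ZKSCAN3, ZSCAN9, ZSCAN16, ZSCAN31, ZKSCAN4, ZSCAN12 and ZSCAN23. There ZSCAN26 overlapped ZKSCAN3, ZKSCAN3 overlapped ZSCAN9, ZSCAN16 overlapped ZSCAN31, and ZSCAN31 (1.497 ± 0.593 CPM per kb) overlapped ZKSCAN4. ZSCAN12 was lowest of the tested members in both lines, with 0.152 ± 0.0250 CPM per kb in HCT116. These lengths take all annotated exons of a gene, and the isoforms in use were not measured.

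Spread within a line was uneven. The ratio of the highest to the lowest library was 1.04 to 1.40 for the 9 members in DNMT3B KO cells and 1.02 to 2.07 in HCT116 cells, against medians of 1.18 and 1.36 over all tested genes. ZSCAN31 was 2.07 times and ZKSCAN8 1.59 times as high in HCT116 replicate 2 as in replicate 3, where the median over tested genes was 1.04, while ZSCAN12 was lower in replicate 2 (ratio 0.720). The summed level of the 10 members was 127.7, 124.5 and 124.3 CPM in DNMT3B KO replicates 1, 2 and 3, against 108.3, 128.7 and 93.5 CPM in HCT116 replicates 1, 2 and 3. These sums overlapped, and ZKSCAN8 was the largest part of each.

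Beside the members, 16 other annotated genes lie in or overlap the span of the cluster, and 14 of them averaged under 1 CPM. The filter kept 6 of the 16 and edgeR called 0, with 1 at an unadjusted p under 0.05, while DESeq2 called 0 of 8. Over all tested genes edgeR called 28.1%, and 6 genes are too few to set against that share. The gene with the low unadjusted p, ZSCAN12P1, a pseudogene named for ZSCAN12 and singled out after its values were seen, had 1.14, 1.04 and 0.701 CPM in DNMT3B KO, against 0.331, 0.612 and 0.615 CPM in HCT116 (log2 fold change 0.89, adjusted p = 0.10). The antisense gene ZSCAN16-AS1, which covers 197 of the 1518 exon bases of ZSCAN16, had 2.98, 2.63 and 2.59 CPM in DNMT3B KO, against 2.30, 4.004 and 2.78 CPM in HCT116, and the groups overlapped (adjusted p = 0.71). AL021997.2, which shares 10.1% of the exon bases of ZSCAN26 on the same strand, had at most 0.137 CPM in DNMT3B KO and 0.110 CPM in HCT116 libraries. Counts in these shared parts are uncertain.

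Of a wider list of 15 genes at 6p22, which includes 7 of those 16, 9 were tested, 1 rose, 1 fell and 7 did not pass. The called genes lie outside the span of the cluster, which starts at chr6:28080568. ZNF391 lies at chr6:27374615-27403908 and ZNF184 at chr6:27450743-27473118. The called share was 22.2%, against 28.1% of all tested genes. ZNF184, a zinc finger gene at a lower coordinate than the cluster, had 19.2, 19.3 and 21.1 CPM in DNMT3B KO, against 12.5, 13.8 and 12.9 CPM in HCT116 (log2 fold change 0.61, standard error 0.11, adjusted p = 0.0047 from edgeR). ZNF391, next to it, had 7 counts over the DNMT3B KO libraries and 304 over the HCT116 libraries. Its level was 0.0367 ± 0.0271 CPM in DNMT3B KO and 1.69 ± 0.159 CPM in HCT116 (SD, n = 3 each), and by these counts HCT116 was 47.5 times as high per library size (exact 95% counting interval 22.8 to 119.1). It fell by 5.48 on the log2 scale (standard error 0.46, adjusted p = 0.00010). Without HCT116 replicate 3, 2 genes of this list fell.

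SCAN family genes elsewhere in the genome were counted for comparison. Of 43, the filter kept 34, of which 3 rose, 2 fell and 29 did not pass, a share of 14.7% called, against 33.3% of the 9 tested members and 28.1% of all tested genes. These shares were not tested against each other. Their median log2 fold change was 0.17, and 26 of the 34 were above 0. ZSCAN2, a SCAN zinc finger gene, had 16.2, 17.9 and 16.7 CPM in DNMT3B KO, against 9.52, 10.9 and 9.22 CPM in HCT116 (log2 fold change 0.77, adjusted p = 0.0027). ZNF445, a KRAB protein that maintains methylation of imprinted genes, rose by 0.44 on the log2 scale (adjusted p = 0.0072), and ZNF274, which brings SETDB1 to the ends of zinc finger genes, by 0.58 (adjusted p = 0.010). ZNF396 had 2 counts over the DNMT3B KO libraries and 254 over the HCT116 libraries, so HCT116 was 138.9 times as high (exact 95% counting interval 38.0 to 1153). That interval leaves out the spread between libraries, which had 1.23, 2.18 and 0.655 CPM in HCT116 replicates 1, 2 and 3. The log2 fold change of ZNF396 was -6.81 (standard error 0.87, adjusted p = 0.00089 from edgeR). Without HCT116 replicate 2, 7 of these genes rose, and 1 fell when any DNMT3B KO library or HCT116 replicate 1 was left out. ZNF232, named after its values were seen, also fell (log2 fold change -0.58, adjusted p = 0.043).

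**Figure D3:**
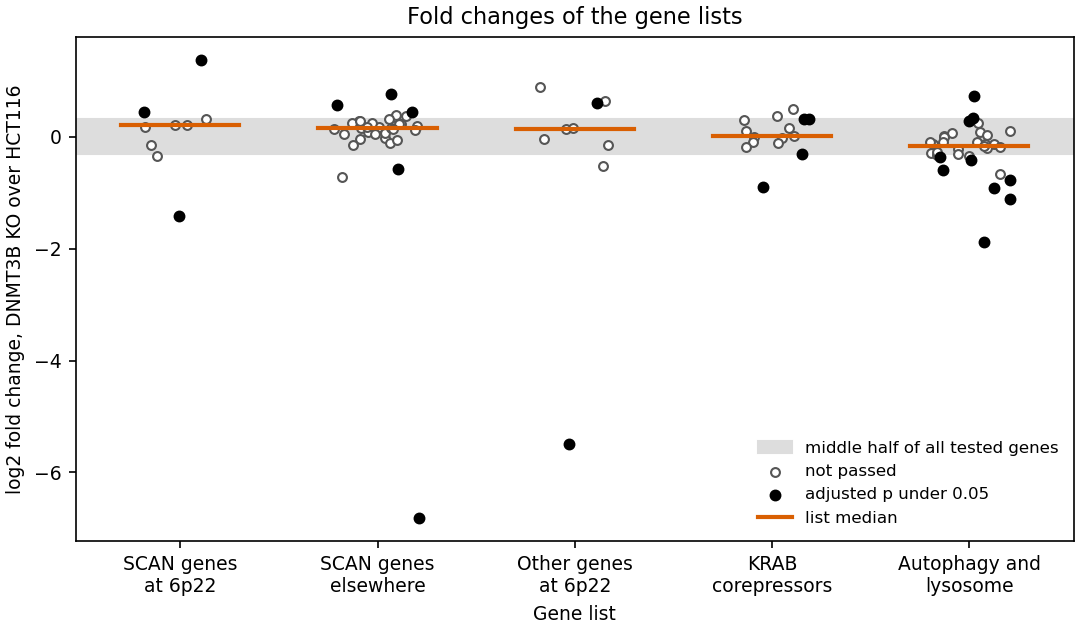
Log2 fold change of DNMT3B KO over HCT116 for the tested genes of 5 lists, with called genes filled, list medians in orange and the interquartile range of all tested genes (-0.31 to 0.31) in grey. The medians of the 9 members (0.21), the 34 SCAN genes elsewhere (0.17) and the 9 other genes at 6p22 (0.14) lie inside the grey band.

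Genes for proteins through which many KRAB zinc finger proteins act on chromatin were also counted. Whether the KRAB-bearing members act through them was not tested. Of 15 tested corepressor genes, 2 rose, 2 fell and 11 did not pass, with a median log2 fold change of 0.02. The called share of 26.7% lies near the 28.1% of all tested genes. HDAC1, a histone deacetylase, had 164.8, 166.0 and 162.5 CPM in DNMT3B KO, against 304.8, 309.8 and 301.7 CPM in HCT116 (log2 fold change -0.89, standard error 0.08, adjusted p = 0.00012 from edgeR). SETDB1, an H3K9 methyltransferase, fell by 0.31 on the log2 scale (adjusted p = 0.024), while MPHOSPH8, an H3K9me3 reader of the HUSH complex, rose by 0.32 (adjusted p = 0.021) and the chromatin remodeller ATRX by 0.33 (adjusted p = 0.037). TRIM28, which many KRAB domains bind directly and which was singled out after its values were seen, did not pass (log2 fold change -0.10, adjusted p = 0.66). Of 11 alternatives, 7 kept the call of MPHOSPH8 and 5 each those of ATRX and SETDB1. With low counts unfiltered, ATRX and SETDB1 did not pass (adjusted p = 0.058 and 0.057). The call of SETDB1 was also lost without HCT116 replicate 1 and without each DNMT3B KO replicate (adjusted p = 0.082 to 0.11). That of MPHOSPH8 was lost without HCT116 replicate 1, DNMT3B KO replicate 2 or DNMT3B KO replicate 3 (adjusted p up to 0.098). ATRX kept its call without HCT116 replicate 1 (adjusted p = 0.0415). It lost the call without HCT116 replicate 2 or 3 and without each DNMT3B KO replicate (adjusted p up to 0.14). Leaving out DNMT3B KO replicate 2 or 3 gave 0 genes that rose, and leaving out HCT116 replicate 3 gave 5.

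Autophagy and lysosome genes, the pathway that ZKSCAN3 is described as repressing in human cells, included genes called in both directions. Of 33 tested, 3 rose, 7 fell and 23 did not pass, and the called share of 30.3% lies near the 28.1% of all tested genes. The median log2 fold change was -0.16, with 9 genes above 0 and 24 below. ATG12, a ubiquitin-like protein of autophagosome formation, had 89.5, 86.2 and 87.0 CPM in DNMT3B KO, against 308.2, 383.6 and 269.7 CPM in HCT116 (log2 fold change -1.87, standard error 0.13, adjusted p = 5.0e-05 from edgeR). The lysosomal enzyme genes HEXA, CTSB and CTSA fell by 1.12, 0.91 and 0.59 on the log2 scale (adjusted p = 0.00032, 0.0010 and 0.0011). The number that fell was 4 without HCT116 replicate 1 or DNMT3B KO replicate 3 and 11 without HCT116 replicate 2. The number that rose was 0 without HCT116 replicate 1 or DNMT3B KO replicate 2 and 1 without DNMT3B KO replicate 3.

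**Figure D4:**
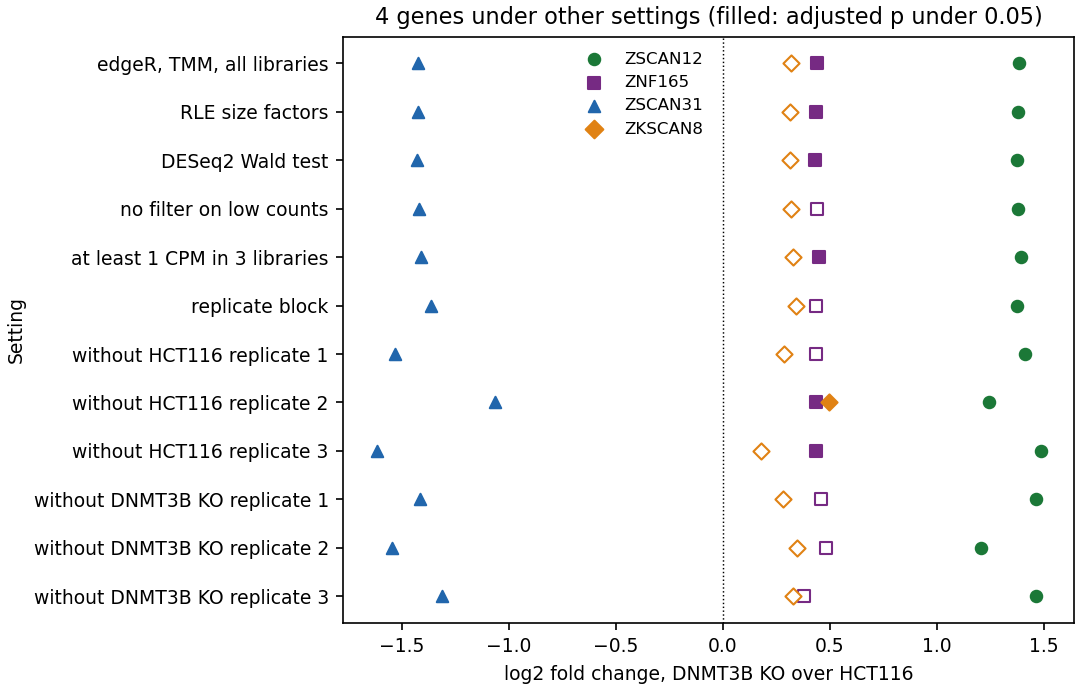
Log2 fold change of DNMT3B KO over HCT116 for 4 members under 12 settings, the first being the one reported, with filled symbols for an adjusted p under 0.05. ZSCAN12 (1.20 to 1.48) and ZSCAN31 (-1.62 to -1.07) are filled throughout, whereas ZNF165 is filled in 6 and ZKSCAN8 only without HCT116 replicate 2.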

How the data were processed

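RNA was sequenced from 3 DNMT3B KO and 3 HCT116 libraries, prepared with a stranded mRNA kit and read as 50-base paired ends. Per the paper's methods and the labels, the authors aligned reads to hg38 with STAR in the nf-core/rnaseq workflow, counted them with Salmon in Ensembl transcripts, and deposited estimated counts per gene, scaled for gene length. Values were rounded to integers. Genes were filtered with filterByExpr, normalised by TMM and tested over the whole table in edgeR 4.0.16 (R 4.3.3) by quasi-likelihood, with genotype alone in the model. Benjamini-Hochberg adjustment ran over 16959 genes. The standard error is the size of the log2 fold change divided by the square root of F. Positions and exon lengths came from GENCODE release 44 (hg38), and promoters from RefSeq. The members and lists were chosen with earlier results of these data known. All members were named, with up to 4 called genes per other list (smallest adjusted p, at least 1 CPM in a line) and genes that overlap a member or start within 2000 bases of its start. Alternatives were RLE factors, the Wald test of DESeq2 1.42.0 (the study's own test), other filters, a replicate block, a stricter threshold and leaving out each library. The fit was also run on counts simulated from the means and library sizes of these data, and that outcome is not reported here. Reads carried no molecular identifiers, so they are not independent molecules and intervals on counts hold for counting error only.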

Additional observations from a re-analysis of the deposited data

How the results depend on the processing

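ZSCAN12 and ZSCAN31 kept their direction and their call under all 11 alternatives, and no member changed direction. The number of members that rose was 1 with no filter on low counts, at an adjusted p under 0.01 and in the fit with a replicate block, and 1 to 3 when a library was left out. With the replicate block, ZNF165, MPHOSPH8 and SETDB1 did not pass (adjusted p = 0.052, 0.053 and 0.054). The labels do not state that equal numbers pair libraries across the lines. Deviations from the group means correlated at 0.0641, -0.00963 and 0.122 for numbers 1, 2 and 3. Between unlike numbers they correlated at -0.121 to 0.084, and not every library correlated best with its own number. With 3 libraries a line these correlations are not independent, so whether the libraries were paired cannot be read from them. Among all tested genes, 1283 to 2868 rose when a library was left out, and 1077 rose and 1571 fell at an adjusted p under 0.01. Leaving out a library gave 3 to 7 SCAN genes elsewhere that rose and 1 to 2 that fell, 1 to 2 other genes at 6p22 that fell, 0 to 5 corepressor genes that rose and 1 to 2 that fell, and 0 to 3 autophagy and lysosome genes that rose and 4 to 11 that fell. At an adjusted p under 0.01, 1 SCAN gene elsewhere fell (also with at least 1 CPM in 3 libraries), 0 corepressor genes rose and 1 fell (also 1 with no filter and with the replicate block), and 0 autophagy and lysosome genes rose and 4 fell. The causes were not tested. With 3 libraries a line, the 95% intervals of the 6 members that did not pass reach from -0.81 to 0.68 on the log2 scale, so changes inside them cannot be read from these data.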
